A study of Rattus norvegicus with 9 samples.

Results

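The rows described here are the microRNA precursor genes that gave a signal in RNA sequencing of rat medial prefrontal cortex (mPFC). They were selected on their mean level: 149 of the 1588 rows annotated as microRNA had a mean of at least 1 FPKM (fragments scaled to gene length in kilobases and to library size) over all 9 libraries. The table holds 34463 rows in all, and 473 of the microRNA rows had a read in any library. Since the level chose the members, their levels are given as a description, and only differences between groups were tested. Just inside the limit lay AABR07032329.1 at 1.03 FPKM and Mir219a1 at 1.03 FPKM, and just outside it AC099294.2 at 0.985 FPKM and Mir93 at 0.967 FPKM.

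The tissue came from male Sprague-Dawley (SD) rats in 3 groups of 3 libraries each. Veh animals received the vehicle, a sodium carboxymethyl cellulose solution, without stress. Veh + CMS animals received the vehicle and 3 weeks of chronic mild stress (CMS), a schedule of changing mild stressors. PHL + CMS animals received phloretin (PHL), a dihydrochalcone found in apples, and the same stress, with the compound started 2 weeks before it (20 mg/kg was the dose selected for the animal work). No PHL group without stress is in these data, the age of the animals is not given in the sources used here, and the labels do not say that each library came from a different animal, so p-values measure the spread between these libraries.

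A microRNA is cut from a hairpin within a longer primary transcript by Drosha and Dgcr8 in the nucleus and by Dicer1 in the cytoplasm, and the mature strand then guides an Argonaute protein to messenger RNAs that match its seed. Many hairpins lie in introns of protein-coding hosts and others in transcripts of their own. In the forebrain, miR-132 and miR-212 are known as products of 1 primary transcript that is induced by neuronal activity through CREB, and miR-219 and miR-338 are known from myelinating oligodendrocytes. A library of long RNA fragments of this kind does not capture mature microRNAs, so each value counts reads over a hairpin's locus, from primary or host transcripts. The strand setting of the counting is not given, so transcripts of the other strand may have counted as well.

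The mature sequences of the 4 named microRNA genes on which the comparisons turn show which hairpins were counted, with the seed (bases 2 to 8) in capitals. RefSeq (build GRCr8) held mature sequences for 55 of the 149 members.
rno-miR-132-3p: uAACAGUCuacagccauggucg
rno-miR-212-3p: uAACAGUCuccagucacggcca
rno-miR-1249: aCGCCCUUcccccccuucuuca
rno-miR-219b, the product listed for Mir2964: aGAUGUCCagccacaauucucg
The 3p strands of miR-132 and miR-212 share their seed and their first 9 bases. The whole Mir132 hairpin of 101 bases is shown because reads were counted over a row of this length, by a rule that is not given. Both mature strands are in capitals.
Mir132 hairpin: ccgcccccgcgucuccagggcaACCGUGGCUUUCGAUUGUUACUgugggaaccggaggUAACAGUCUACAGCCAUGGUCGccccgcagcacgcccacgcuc
Another seed held by several members was GAGGUAG, the let-7 seed, shared by the 4 rows Mirlet7b, Mirlet7c2, Mirlet7d and Mirlet7i. In all, 12 members shared 6 seeds.

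The libraries held 13913639 to 16960004 reads on genes, recovered as whole numbers from the FPKM values. The member rows are 42 to 145 bases long (median 89 bases, against 2140 bases for the tested genes), and 1 FPKM over the median member stood for 1.4 reads. Of the 149 members, 43 had a mean of under 3 reads per library, 52 had 3 to 10, 41 had 10 to 100 and 13 had 100 or more. Reads were present in all 9 libraries for 96 members. A level of 1 FPKM was reached in all 3 groups by 114 members, in exactly 2 groups by 30 and in only 1 group by 5. Those 5 entered through the group in which they were high. Since the limit was on the mean over all libraries, some other members also passed it largely through 1 group, as Mir377 and AABR07065617.1 did through PHL + CMS. Excitatory neuron markers, which define cortex against white matter, were present in every library (summed FPKM 1081 to 1453 over 6 genes). Striatal markers were highest in Veh replicate 3 (544.2 summed FPKM) and Veh + CMS replicate 1 (747.5), and Cldn5, an endothelial marker, is listed at 0 in every library.

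**Figure D1:**
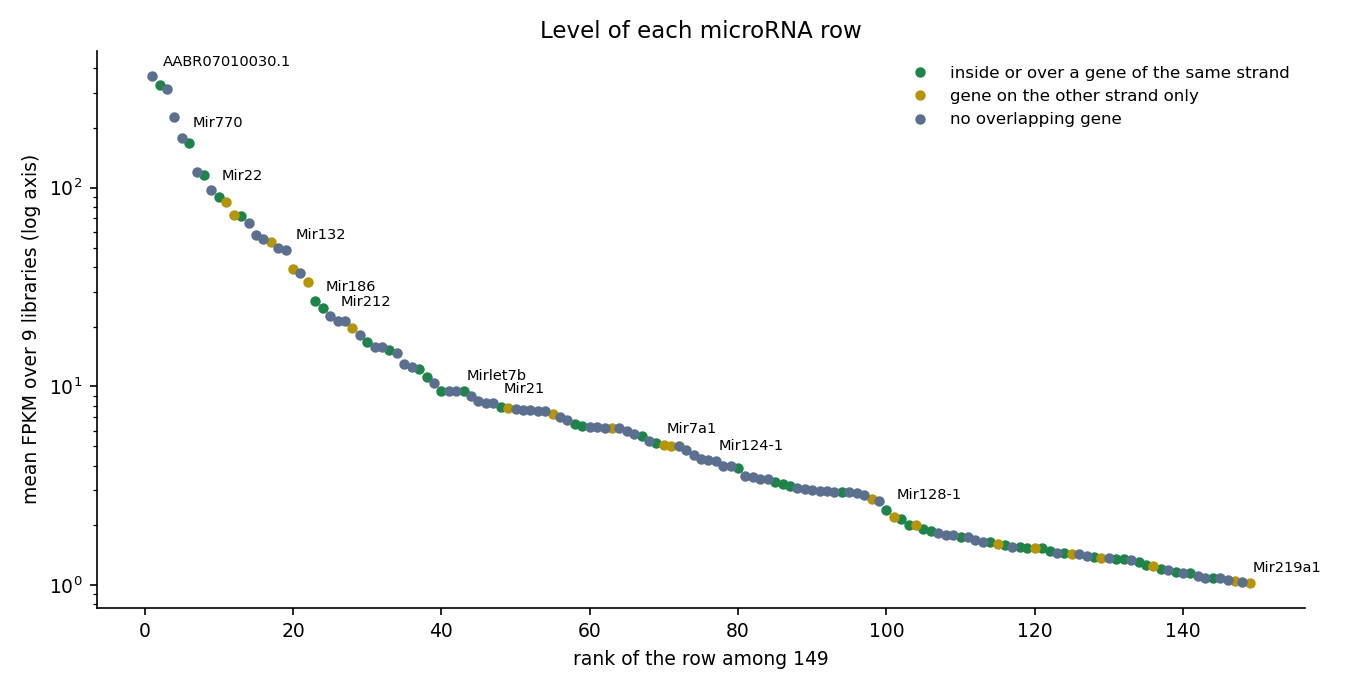
Mean FPKM over the 9 libraries (log axis) of each of the 149 microRNA rows, by rank and coloured by the gene they overlap. Levels fall from 364 FPKM for AABR07010030.1 to the limit of 1 FPKM, and rows inside hosts occur along the whole range.

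AABR07010030.1, a row with a clone-based name on chromosome 2 (121153485 to 121153563, plus strand, Rnor_6.0), had the highest level, with a mean of 364.5 FPKM and 453.4 reads. No gene of the table overlaps it, and the nearest is Sox2, a transcription factor of neural progenitors and glia, at a distance of 11574 bases on the same strand. AABR07065531.1 and Mir770 on chromosome 6 were the next rows without an overlapping gene or a gene close upstream, with mean levels of 313.2 and 178.4 FPKM. They lie on either side of the long noncoding RNA AABR07065531.26, at 5372 and 6050 bases from it. AC096600.1, inside Psd, an exchange factor of ARF6, reached 327.1 FPKM, and Gm25994, inside Ddx5, reached 168.1 FPKM. Ddx5 is an RNA helicase that itself works with Drosha. AC106663.4, past the end of Purb, stood at 227.9 FPKM. AABR07018226.1, a row without a host, lies just after Mir124-1 on chromosome 15 (47964798 to 47964886, against 47964298 to 47964382, plus strand). It had 91.0 to 140.0 FPKM over the 9 libraries, with a log2 difference under stress of 0.20 (SE 0.161).

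Among named families, Mir22 had a mean of 96.9 FPKM, Mir132 of 48.7 FPKM and Mir212 of 22.6 FPKM. Rows of microRNAs known as abundant in neurons were lower. Mir124-2 had a mean level of 7.50 FPKM, Mir124-1 of 4.26 FPKM, Mir7a1 of 5.18 FPKM and Mir128-1 of 2.40 FPKM. Mir128-1, Mirlet7c2 and Mir186 fall outside the naming rule and were chosen after their values were seen. Mirlet7b stood at 9.50 FPKM and Mir21, known from microglia and reactive glia, at 8.24 FPKM.

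Stress was compared with no stress first. At an adjusted p under 0.05 (limma on log2(FPKM + 0.1), Benjamini-Hochberg over 16159 tested genes), 3 of the 149 members differed between Veh + CMS and Veh, against 3.79% of all tested genes. Mir212 was lower, and AABR07010030.1 and Mir1249 were higher. At an unadjusted p under 0.05 with at least 1.5-fold change, 15 members passed (6 higher and 9 lower), against a background of 6.99%. These counts were 2.01% and 10.1% of the members, one below and one above the background. By an unadjusted p under 0.05 alone, 19 members passed (12.8%), below the 22.3% of all tested genes. No member was called when either Veh replicate 1 or 2 or any Veh + CMS library was left out, and 4 were without Veh replicate 3, when 3.05% of all tested genes were. Without both libraries high in striatal markers, 0 members and 26 genes in all were called by limma, and 23 members passed 1.5-fold with an unadjusted p under 0.05, against 9.65% of all tested genes there. The median log2 difference of the members was 0.14 (leaving out Veh replicates 1 or 2 gave 0.071 or 0.043, and leaving out Veh + CMS replicate 1 gave 0.25), that of all tested genes -0.016, and that of 209 other short RNA rows (snoRNA, snRNA and misc_RNA at 1 FPKM or more) 0.249. The median standard error (SE) of a member was 0.632 on the log2 scale, against 0.157 for all tested genes. With a larger SE, a difference must be larger to reach an unadjusted p under 0.05. The 1.5-fold rule then kept 15 of 19 members but 1129 of 3596 tested genes, so shares by that rule cannot be read as an excess of members.

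Mir212, the only member that passed with a lower level, fell to about the same level in all 3 stressed libraries. Its FPKM was 27.5, 31.1 and 26.0 in Veh, 9.20, 9.34 and 11.9 in Veh + CMS, and 29.7, 35.8 and 22.8 in PHL + CMS. The 3 Veh + CMS libraries lay below the other 6, which overlapped each other. The group means were 28.2 ± 2.64, 10.2 ± 1.55 and 29.5 ± 6.51 FPKM (SD, n = 3), on 142, 54 and 159 reads. Veh + CMS was lower than Veh by 1.47 on the log2 scale (log2 fold change -1.47, SE 0.168, limma adjusted p = 0.0263). The ratio of reads was 0.361, with an exact binomial 95% interval of 0.259 to 0.497 that covers counting error only. The limma SE was below the 0.23 that counting alone gives, and an exact permutation test of 3 libraries against 3 cannot go below p = 0.1, the value it gave. Without Veh replicate 1 the adjusted p was 0.097, without Veh replicate 2 it was 0.116, and without Veh + CMS replicates 1, 2 and 3 it was 0.0517, 0.0754 and 0.0828, with the log2 difference between -1.59 and -1.40. Without any of these 5 libraries in turn, at most 1 of the 16159 genes was called at all.

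Mir132, which starts 183 bases after the end of Mir212 on chromosome 10 (62014995 to 62015095, against 62014702 to 62014812, plus strand), had a difference of the same sign with more spread. Its FPKM was 53.1, 96.1 and 50.2 in Veh, 44.6, 23.3 and 29.9 in Veh + CMS, and 46.2, 54.4 and 40.9 in PHL + CMS. The Veh + CMS libraries lay below all Veh libraries but overlapped PHL + CMS. The log2 difference of Veh + CMS from Veh was -1.01 (SE 0.286), which did not pass the test (limma adjusted p = 0.0842). Whether single fragments covered both hairpins was not measured, so their reads need not be independent.

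Neither annotated neighbour of this locus passed the test. Smg6, a nuclease of nonsense-mediated decay whose end lies 7672 bases before Mir212, had a log2 difference of 0.13 (SE 0.135, limma adjusted p = 0.631). Dph1, a diphthamide synthesis gene on the other strand, had one of 0.01 (SE 0.1, adjusted p = 0.968). Genes induced by neuronal activity, a list of 8 added after values had been seen (Fos, Fosb, Arc, Egr1, Egr2, Nr4a1, Junb and Bdnf), were all below 0 in the same comparison, with a median log2 difference of -1.1. None of the 8 passed the adjusted threshold in limma, all 8 had an unadjusted p under 0.05, and voom called 2 of them. Their summed FPKM was 378.8 to 775.2 in Veh, 220.5 to 341.7 in Veh + CMS and 380.1 to 453.3 in PHL + CMS, and the part of these genes in the differences of Mir212 and Mir132 was not tested.

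**Figure D2:**
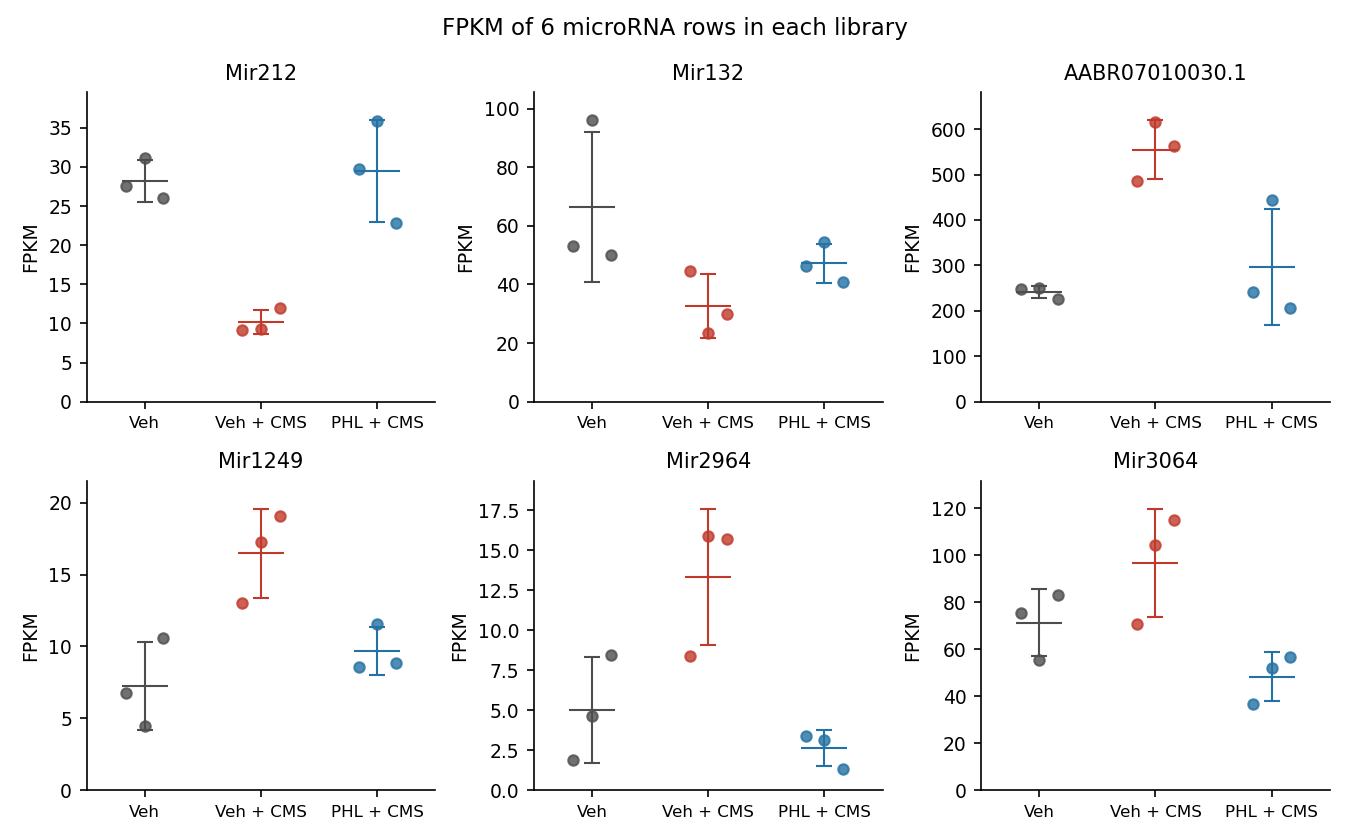
FPKM of 6 microRNA rows in each library of Veh, Veh + CMS and PHL + CMS (points), with the group mean and SD (bars, n = 3). Mir212 lies between 9.20 and 11.9 FPKM in Veh + CMS and at 22.8 FPKM or more in the other libraries, while AABR07010030.1 is at 486.7 FPKM or more in Veh + CMS and at 443.3 FPKM or less elsewhere.

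AABR07010030.1, the row near Sox2, rose under stress. Its FPKM was 247.7, 250.7 and 225.5 in Veh, 486.7, 615.3 and 563.2 in Veh + CMS, and 242.1, 443.3 and 205.7 in PHL + CMS. Every Veh + CMS library lay above the other 6, and PHL + CMS replicate 2 stood apart from its group. The log2 difference from Veh was 1.20 (SE 0.242, limma adjusted p = 0.0375), and the reads rose from 865 to 2081. Sox2 itself had a log2 difference of 0.31 (SE 0.219, adjusted p = 0.451). Leaving out any library of either group took the adjusted p of the row above the threshold, with 0.113, 0.134 and 0.069 without Veh replicates 1, 2 and 3 and 0.0663, 0.097 and 0.101 without those of Veh + CMS, and the log2 difference stayed between 1.12 and 1.29.

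Mir1249 also rose, on few reads. Its reads numbered 13, 8 and 18 in Veh, 26, 30 and 38 in Veh + CMS, and 18, 22 and 16 in PHL + CMS. On the FPKM scale Veh lay at 6.75, 4.43 and 10.6, below the 13.0, 17.3 and 19.1 of Veh + CMS. The log2 difference was 1.24 (SE 0.285, limma adjusted p = 0.0489), at the edge of the threshold. The gene it lies in, RGD1304694, rose as well (log2 difference 0.69, SE 0.135, adjusted p = 0.0345). The adjusted p of Mir1249 was 0.139 and 0.14 without Veh replicates 1 and 2, and 0.0726, 0.114 and 0.134 without those of Veh + CMS.

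Oligodendrocyte markers, from the cells that make myelin, moved with both AABR07010030.1 and Mir1249. All 11 genes of that list (Mbp, Mog and others) rose in Veh + CMS against Veh, with a median log2 difference of 1.71. Their summed FPKM was 2262, 1727 and 2195 in Veh, 6055, 8310 and 7224 in Veh + CMS, and 2461, 5398 and 2468 in PHL + CMS, so that PHL + CMS replicate 2 was again the highest of its group. Other lists had differences of 1 sign too, with no gene past the adjusted threshold in limma or voom: all 9 striatal markers were above 0 under stress (median 0.86, 4 at an unadjusted p under 0.05 in limma and 5 in voom), as were all 6 microglial markers (median 0.18, 2 in each), and all 6 excitatory neuron markers were below 0 (median -0.19, 1 in each). The part of any of these markers in the change of AABR07010030.1 and Mir1249 was not tested. In bulk tissue, more cells of a type and more RNA per cell cannot be told apart.

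The listed product of Mir2964 is miR-219b, known as a hairpin on the strand opposite to a miR-219 hairpin. No source says that strand was used in counting, so reads of both strands cannot be told apart. Its reads numbered 3, 7 and 12 in Veh, 14, 23 and 26 in Veh + CMS and 6, 5 and 2 in PHL + CMS. The Veh + CMS libraries held the most reads, although on the FPKM scale 8.41 in Veh + CMS replicate 1 overlapped 8.45 in Veh replicate 3. The log2 difference of Veh + CMS from Veh was 1.58 (SE 0.54, limma adjusted p = 0.131), which did not pass. Mir219a1, from another miR-219 locus, had 0 to 5 reads per library, and its ratio of reads under stress was 0.633 with an interval of 0.131 to 2.67. Mir3065, named here after its values were seen because it lies opposite Mir338, had 1 to 8 reads and a log2 difference of 0.89 (SE 0.668, adjusted p = 0.481), beside 0.69 (SE 0.126, adjusted p = 0.0317) for Aatk, the gene on the other strand.

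Several members with many reads had smaller differences. Gm22877, inside Mycbp2, a ubiquitin ligase of axons, had 70.9 to 99.1 FPKM in Veh and 148.7 to 159.4 FPKM in Veh + CMS (log2 difference 0.96, SE 0.234, limma adjusted p = 0.0578), while Mycbp2 had a difference of 0.05 (SE 0.076). Gm23880, 245 bases from Ep300, a histone acetyltransferase gene, had 26.1 to 28.9 FPKM in Veh and 34.6 to 48.7 FPKM in Veh + CMS (log2 difference 0.56, SE 0.134, adjusted p = 0.0549). AC106663.4, 1142 bases past the end of Purb, had a difference of 0.35 (SE 0.114, adjusted p = 0.122), and AC099089.1, on the strand opposite Trim17, one of -0.27 (SE 0.084, adjusted p = 0.109). None of these 4 rows passed the test.

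AABR07024593.2 lies 993 bases past the end of Ankrd28, a subunit of protein phosphatase 6. Its FPKM was 43.7, 42.4 and 58.2 in Veh and 66.2, 67.5 and 76.4 in Veh + CMS, a log2 difference of 0.55 (SE 0.146, limma adjusted p = 0.0687). Ankrd28 rose by 0.72 (SE 0.12, adjusted p = 0.0263). In all, 13 members that overlap no gene lie within 2000 bases past the end of a tested gene of the same strand.

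Other rows had larger negative differences on fewer reads. Mir1247, close to Dio3 (the deiodinase that inactivates thyroid hormone), had 10, 12 and 3 reads in Veh, 0, 2 and 1 in Veh + CMS, and 1, 4 and 1 in PHL + CMS. Its log2 difference of -3.47 (SE 1.019) did not pass (limma adjusted p = 0.0934), and the ratio of reads was 0.114 with an interval of 0.0220 to 0.373. Mir760 had 46, 34 and 23 reads in Veh and 26, 14 and 26 in Veh + CMS (log2 difference -0.71, SE 0.248, adjusted p = 0.136). Mir124-3, named after its values were seen, had 4, 1 and 5 reads in Veh and 1, 0 and 0 in Veh + CMS. It reached the limit of 1 FPKM only through Veh, so a lower level elsewhere follows from how it was selected. Mir124-2 and Mir124-1, which give the same mature product and reached the limit in all 3 groups, had log2 differences of -0.05 (SE 0.357) and 0.19 (SE 0.385).

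**Figure D3:**
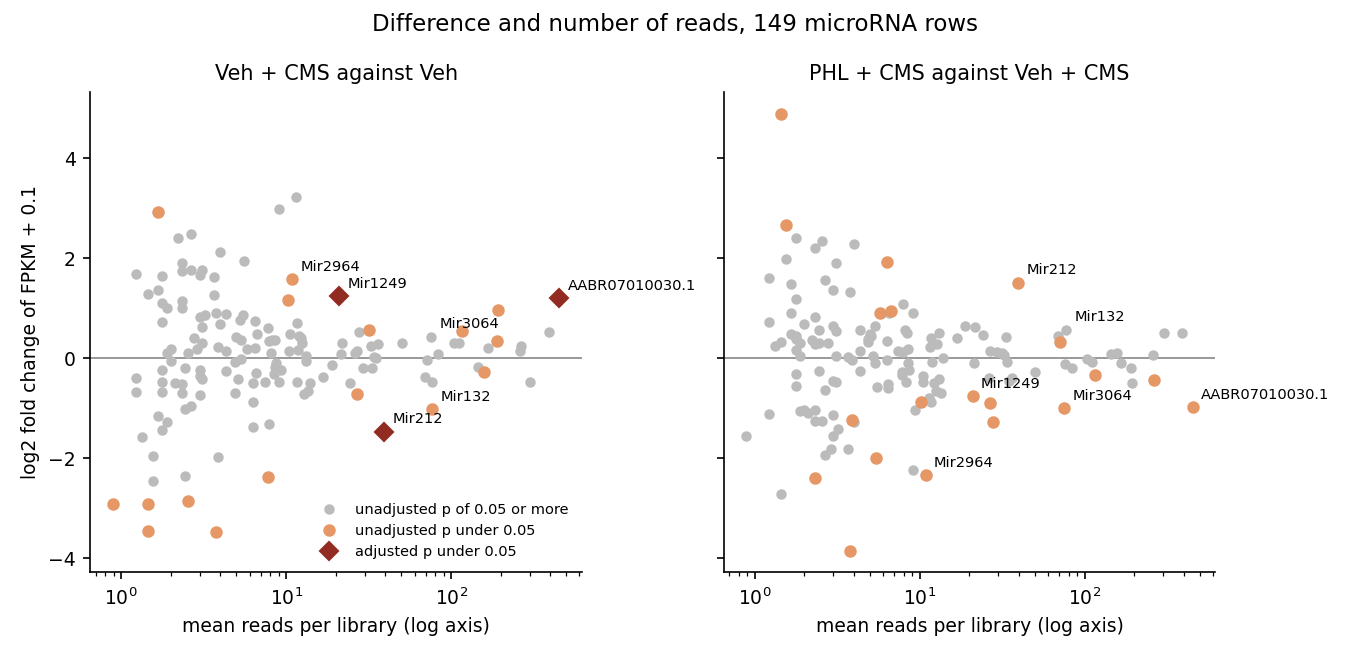
Log2 fold change of each of the 149 microRNA rows against its mean number of reads per library (log axis), for Veh + CMS against Veh (left) and PHL + CMS against Veh + CMS (right). Differences beyond 2 in either direction occur mostly among rows with few reads, and diamonds in the left panel mark Mir212, Mir1249 and AABR07010030.1, the 3 rows with an adjusted p under 0.05.

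The effect of phloretin under stress was then read from PHL + CMS against Veh + CMS. No member passed the adjusted threshold in limma, where 0.0% of all tested genes did, and voom on the recovered reads called none either. At an unadjusted p under 0.05, 20 members passed in limma (13.4%, against 15.7% of all tested genes) and 14 in voom, for which the share of all tested genes is not given here. With a 1.5-fold change as well, 17 passed (11.4% of the members, 6 higher and 11 lower), against 4.74% of all tested genes. The fold rule thus kept 17 of 20 members but 766 of 2542 tested genes, so these shares cannot be read as an excess of members. The median log2 difference was 0.042 over all members and -0.084 over the 54 members with a mean of 10 or more reads. The median over all members had no stable sign, with -0.065 and -0.001 without Veh + CMS replicates 1 and 3, -0.09 and -0.022 without PHL + CMS replicates 2 and 3, and 0.146 without PHL + CMS replicate 1. Without PHL + CMS replicate 2, 285 of the 16159 genes (1.76%) and 2 of the members were called, where the fit with all libraries called none.

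Mir212 was among the members with the largest difference relative to its SE. Its log2 difference was 1.51 (SE 0.168, limma adjusted p = 0.136), and the 3 PHL + CMS libraries lay above the 3 Veh + CMS libraries. This comparison and the one of stress with vehicle share the Veh + CMS libraries, so the opposite signs are not independent of each other. In the fit without PHL + CMS replicate 2 the adjusted p was 0.0121, with a log2 difference of 1.36. Mir132 had a difference of 0.57 (SE 0.286, adjusted p = 0.375), with overlapping groups. PHL + CMS against Veh, which does not use the Veh + CMS libraries, gave 0.04 (SE 0.168) for Mir212 and -0.44 (SE 0.286) for Mir132.

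AABR07010030.1 had a log2 difference of -0.98 (SE 0.242, limma adjusted p = 0.161), with every PHL + CMS library below every Veh + CMS library. Without PHL + CMS replicate 2, the library with the highest oligodendrocyte markers of its group, the difference was -1.31 and the adjusted p 0.0104. Mir2964 had a difference of -2.35 (SE 0.54, adjusted p = 0.153), and Mir1249 one of -0.76 (SE 0.285, adjusted p = 0.255). The oligodendrocyte list had a median of -1.07, with all 11 genes below 0 and none past the adjusted threshold in limma (11 at an unadjusted p under 0.05, and none called by voom).

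Both rows inside Ddx5 had negative differences. Mir3064 had 70.8, 104.2 and 115.2 FPKM in Veh + CMS and 36.5, 51.8 and 56.7 FPKM in PHL + CMS, without overlap (log2 difference -0.99, SE 0.23, limma adjusted p = 0.153). Gm25994 had 183.3 to 204.7 FPKM and 106.0 to 177.4 FPKM (log2 difference -0.43, SE 0.172, adjusted p = 0.274). Ddx5 had a difference of -0.01 (SE 0.087, adjusted p = 0.982). Mir3074, beside Mir23b and Mir27b on chromosome 17 but on the other strand, had 15.9, 19.5 and 18.6 FPKM in Veh + CMS and 8.76, 7.01 and 14.2 FPKM in PHL + CMS (log2 difference -0.90, SE 0.225, adjusted p = 0.161). Mir27b and Mir23b on the plus strand had differences of -0.23 (SE 0.479) and -0.09 (SE 0.545). AABR07052897.1, a row without a host, had 12, 5 and 11 reads in Veh + CMS and 3, 3 and 1 in PHL + CMS (log2 difference -1.997, SE 0.425, adjusted p = 0.149). None of these passed the test.

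Rows that were higher with phloretin were mostly low. AABR07065617.1, inside the Notch ligand gene Jag2, had no read in Veh + CMS and 2, 2 and 5 reads in PHL + CMS, a ratio of reads whose exact binomial 95% interval starts at 1.94. Its mean level was 1.55 FPKM in Veh and 3.24 FPKM in PHL + CMS. It reached the limit of 1 FPKM largely through PHL + CMS, so a higher level there follows in part from selection. AABR07006860.1, 1431 bases past the end of Lcor, had 6, 5 and 5 reads in Veh + CMS and 12, 14 and 7 in PHL + CMS (log2 difference 0.94, SE 0.251, limma adjusted p = 0.167). Mir2861, 114 bases from Cdk9, a kinase of transcription elongation, had 43.4 to 56.4 FPKM in Veh + CMS and 58.5 to 70.0 FPKM in PHL + CMS (log2 difference 0.32, SE 0.125, adjusted p = 0.267). AC129460.1, near Mief2, had 1, 3 and 6 reads against 13, 11 and 8 (log2 difference 1.92, SE 0.567, adjusted p = 0.181).

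A row inside Penk, the enkephalin precursor gene that is high in striatal neurons, varied with the striatal markers. AABR07047044.1, named after its values were seen, had 1, 1 and 10 reads in Veh, 12, 7 and 1 in Veh + CMS, and 0, 2 and 0 in PHL + CMS. Its highest libraries were Veh replicate 3 and Veh + CMS replicate 1, which were also the highest in the 9 striatal markers, a list that holds Penk. The striatal sum was 187.4 to 544.2 in Veh, 308.0 to 747.5 in Veh + CMS and 204.2 to 220.2 in PHL + CMS. The log2 difference of the row between PHL + CMS and Veh + CMS was -3.85 (SE 1.378, limma adjusted p = 0.232), and the part of the striatal markers in it was not tested.

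PHL + CMS was last set against unstressed Veh. No member passed the adjusted threshold in limma (background 0.0%), voom called none, and 17 members in limma and 9 in voom had an unadjusted p under 0.05. The share of all tested genes in voom is not given here. The 17 were 11.4% of the members, close to the 10.8% of all tested genes. With a 1.5-fold change as well, 13 passed (8.72% of the members, 6 higher and 7 lower), against 2.34% of all tested genes. Here too the fold rule kept most members, 13 of 17, but only 378 of 1741 tested genes. Gm23880 had 26.1 to 28.9 FPKM in Veh and 40.1 to 50.6 FPKM in PHL + CMS (log2 difference 0.67, SE 0.134, limma adjusted p = 0.235). AC130253.2, on the strand opposite Ppp2ca, the catalytic subunit gene of protein phosphatase 2A, had 29, 16 and 14 reads in Veh and 13, 7 and 5 in PHL + CMS (log2 difference -1.35, SE 0.341, adjusted p = 0.273). Mir377, of the large microRNA cluster on chromosome 6, had 0, 1 and 1 reads in Veh and 4, 9 and 5 in PHL + CMS (log2 difference 3.03, SE 0.771, adjusted p = 0.274). Its mean level was 0.34 FPKM in Veh, 1.14 FPKM in Veh + CMS and 2.81 FPKM in PHL + CMS. It reached the limit of 1 FPKM largely through PHL + CMS, so a higher level there follows in part from selection. Its neighbour Mir410 had a difference of 0.27 (SE 0.512). AABR07024982.1, opposite Psd3, had 20, 12 and 12 reads in Veh and 1, 1 and 11 in PHL + CMS, with a log2 difference of -2.66 (SE 1.027, adjusted p = 0.416). AABR07015067.2 had 1, 3 and 2 reads in Veh and none in PHL + CMS, and it reached the limit of 1 FPKM only through Veh, so a lower level elsewhere follows from how it was selected. Gm22953, inside Ppip5k1, had 6, 2 and 3 reads in Veh and 2, 1 and 1 in PHL + CMS (log2 difference -1.38, SE 0.651, adjusted p = 0.49). Mir124-1 had 6, 2 and 4 reads in Veh and 10, 10 and 6 in PHL + CMS (log2 difference 1.09, SE 0.385, adjusted p = 0.38).

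AABR07065531.1 on chromosome 6 varied widely within groups. Its level was 125.4 to 250.1 FPKM in Veh, 195.3 to 431.8 FPKM in Veh + CMS and 148.7, 551.4 and 676.1 FPKM in PHL + CMS, and the groups overlapped (log2 difference of PHL + CMS from Veh 1.03, SE 0.55, limma adjusted p = 0.548). Mir770, on the far side of AABR07065531.26, had differences of 0.15 and 0.06 (SE 0.269) for stress and for phloretin under stress, beside 0.32 and -0.08 (SE 0.228) for AABR07065531.26. Mir22, a row without a host in a stretch with Mir6326, had 81.9 to 113.5 FPKM in Veh, 64.1 to 113.2 FPKM in Veh + CMS and 84.4 to 105.2 FPKM in PHL + CMS. Its difference under stress was -0.18 (SE 0.211, adjusted p = 0.658).

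No row of the listed families other than Mir212 passed the test under stress. Mir21 had 7 to 12 reads in Veh, 11 to 16 in Veh + CMS and 10 to 17 in PHL + CMS (log2 difference under stress 0.45, SE 0.262, limma adjusted p = 0.351). The differences of Mirlet7b, Mirlet7d and Mirlet7i under stress were 0.32 (SE 0.328), -1.38 (SE 0.762) and 1.95 (SE 1.291). Their ratios of reads were 1.21 (interval 0.768 to 1.93), 0.458 (0.224 to 0.896) and 1.61 (0.775 to 3.47), for counting error only. Mirlet7i had 5, 0 and 8 reads in Veh and 5, 8 and 9 in Veh + CMS, so its difference rests largely on the library without a read. Mir7a1, inside Hnrnpk, had 5 or 6 reads in Veh and 3 to 15 in Veh + CMS, and Mir138-2 had 5 to 8 and 2 to 8.

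All member rows together, in RPM (reads scaled to the library's total on genes), held 248.1 to 263.5 in Veh, 302.1 to 303.5 in Veh + CMS and 238.1 to 324.9 in PHL + CMS. Without AABR07010030.1 the ranges were 228.9 to 245.3, 256.2 to 264.3 and 218.3 to 292.9, so Veh + CMS stayed above Veh. In both cases the exact permutation p of Veh + CMS against Veh cannot be under 0.1. The 3 rows with most reads held 20.3% to 31.2% of the member reads of a library. AABR07065531.1, which varied widely within groups, stayed in both sums. The sums therefore weigh a few rows and do not show that most members were higher.

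Host genes were related to members by position. Of the 149 members, 45 overlapped a gene of the same strand, 42 of them wholly inside it, in 43 distinct hosts. Another 21 overlapped a gene only on the other strand and 83 overlapped none. The level of a member was a median of 11.9% of its host's FPKM. It exceeded the host's in 6 of 45 pairs. Gm22877 at 116.0 FPKM within Mycbp2 at 14.1 FPKM is an example, and Mir186 at 26.9 FPKM within Zranb2 at 61.5 FPKM is one of the opposite. Exon positions were not used here, so exonic and intronic members were not separated.

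Differences of members and hosts on the same strand were set side by side. Under stress, 30 of 44 pairs (68.2%) had the same sign, with Pearson's r = 0.28 and Spearman's rho = 0.32 across pairs. For PHL + CMS against Veh + CMS it was 26 of 44 pairs (59.1%, r = 0.42, rho = 0.32). Among the 14 pairs whose member had 10 or more reads, r was 0.53 and 0.69 in these comparisons. The 18 pairs with a tested gene only on the other strand had 50.0% of the same sign and r = 0.37 under stress and 61.1% and r = 0.47 with phloretin under stress. The 6 of them with 10 or more reads had r = 0.67 and 0.2. No test set the same-strand pairs apart from those of the other strand. The pairs share libraries and may share reads, so these values are descriptions. Mir1249 and RGD1304694 both rose under stress, whereas Mir5125 had a difference of 0.30 (SE 0.199, limma adjusted p = 0.423) within Srrm2, a splicing factor gene that rose by 0.40 (SE 0.081, adjusted p = 0.0367), and AC096600.1 one of -0.47 (SE 0.286) within Psd at -0.16 (SE 0.141).

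**Figure D4:**
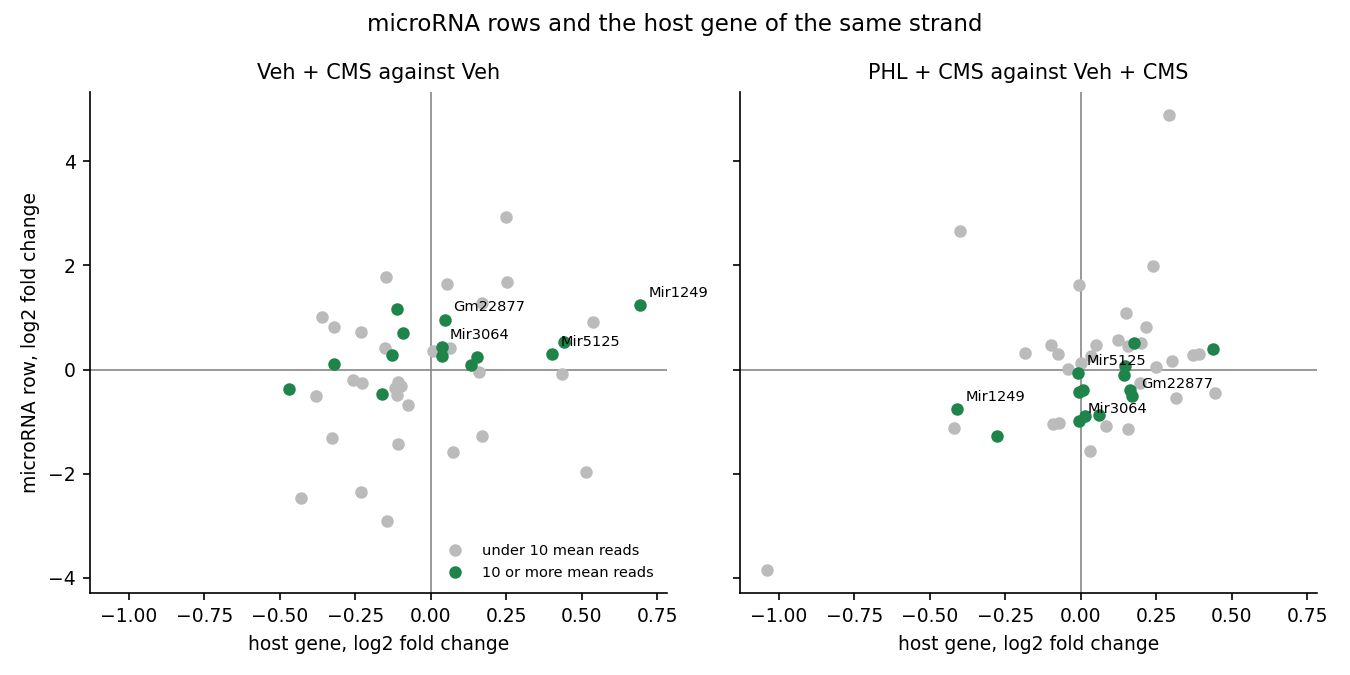
Log2 fold change of 44 microRNA rows against that of the host gene on the same strand, for Veh + CMS against Veh (left) and PHL + CMS against Veh + CMS (right). Mir1249 lies at 0.69 for the host and 1.24 for the row under stress, while the hosts of Mir3064 and Gm22877 lie near 0, and rows with under 10 mean reads (grey) spread the most.

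No gene of the machinery that makes and uses microRNAs passed the same test. Of 34 genes listed, 28 were tested, and none passed the adjusted threshold in any of the 3 comparisons in limma or in voom. At an unadjusted p under 0.05, limma counted 6, 1 and 3 genes and voom 7, 1 and 4, for Veh + CMS against Veh, PHL + CMS against Veh + CMS and PHL + CMS against Veh. Of all tested genes, 22.3%, 15.7% and 10.8% did so in limma, so none of the limma counts exceeded the background. The shares of all tested genes in voom are not given here, so the voom counts have no background beside them. The Argonaute gene Ago3 had a log2 difference of 0.71 (SE 0.194, limma adjusted p = 0.0743) under stress, Ddx17, a helicase partner of Drosha, one of 0.31 (SE 0.101, adjusted p = 0.12), and Tnrc6a, which carries the silencing complex's scaffold protein, one of 0.32 (SE 0.117, adjusted p = 0.15). Ran, whose protein drives nuclear export with exportin 5, had -0.26 (SE 0.112, adjusted p = 0.218). Drosha and Dicer1 had differences of 0.06 (SE 0.093) and 0.28 (SE 0.121). With phloretin under stress, Khsrp, a binding protein of let-7 precursors, had 0.23 (SE 0.075, adjusted p = 0.206).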

How the data were processed

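For each library 1 µg of total RNA went into the NEBNext Ultra RNA kit, and the submitters' processing notes name HISAT2 and Rnor_6.0. The way reads were counted, the annotation and the strand setting were not given in the sources used here. Expression values were deposited by the authors as FPKM per gene. Low values were whole multiples of 1 read in each library (100.0% of values within 1e-06), so reads were recovered from FPKM, gene length and that step.

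FPKM values were tested as log2(FPKM + 0.1) with limma 3.58.1 in R 4.3.3 (trend, all 9 libraries in 1 fit, Benjamini-Hochberg over rows with a mean of at least 0.5 FPKM, 16159 genes, which all 149 members passed). On this scale, differences of low rows depend on the added 0.1, and a library without a read can enlarge them. Alternatives were pseudocounts of 1 and 0.01, other filters, median-of-ratios scaling, only the groups compared, voom on the recovered reads (780, 0 and 0 of all genes called in the 3 comparisons), a replicate block and each library left out, and, chosen after seeing the data, scaling by each library's read total and leaving out both libraries high in striatal markers. The fit was tested on simulated data. Hosts were found by overlap in Rnor_6.0, and sequences by symbol in RefSeq GRCr8. The members and all lists were chosen with earlier results of these data known. A gene of the oligodendrocyte list is not reported here and was left out of its sums and counts. Members named were the 12 with most reads, up to 5 per direction and comparison with the smallest p among those whose groups do not overlap, those of listed families with at least 5 reads, and those at the limit. Intervals cover counting error only.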

Additional observations from a re-analysis of the deposited data

How the results depend on the processing

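For Veh + CMS against Veh, the 3 members called became 1 without a filter on low values (1.28% of all genes) and 0 with the replicate block. They became 4 with a mean of at least 10 reads (4.38% of all genes) and 4 with only the 2 groups compared (2.86%). When 1 library was left out, 0 to 4 were called. Where that was 0, at most 1 of all genes was called, and where it was 4, 3.05% were. Without both libraries high in striatal markers, an alternative chosen after seeing the data, 0 members and 26 of all genes were called. The same alternative moved the 15 members past 1.5-fold to 23 and the median log2 difference from 0.14 to 0.314, and for PHL + CMS against Veh it moved 13 to 25 (9.65% and 3.26% of all genes passed there). It left 2 libraries each in Veh and Veh + CMS. With a mean of at least 10 reads, 54 members were tested, and 8, 8 and 3 of them passed 1.5-fold in the 3 comparisons. Of all genes tested there, 7.15%, 4.86% and 2.1% did so. For PHL + CMS against Veh + CMS, 1 member (Mir212) was called without a filter and 0 to 2 with 1 library left out, the 2 being Mir212 and AABR07010030.1 without PHL + CMS replicate 2, when 285 of all genes (1.76%) were called. For PHL + CMS against Veh, 13 to 20 members passed 1.5-fold with 1 library left out, where 2.07% to 3.3% of all genes did. The replicate block called 0 of all 16159 genes under stress. Replicate numbers did not pair the libraries, with correlations of same-numbered deviations from -0.0974 to 0.0478. With 1 library left out, the median of the members was 0.043 to 0.25, -0.09 to 0.146 and -0.019 to 0.178 in the 3 comparisons. None of the 9 single rows followed reversed its sign. Over 16 alternatives, Mir212 stayed between -1.59 and -1.39 under stress (adjusted p 0.00466 to 0.116, under 0.05 in 9), AABR07010030.1 between 1.12 and 1.29 (0.00473 to 0.134, in 7) and Mir1249 between 0.94 and 1.71 (0.0408 to 0.14, in 4). Depth limits most members: the median member had 6.33 reads per library.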
